A study of Rattus norvegicus with 22 samples.

Results

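Hyaluronan synthesis, binding and breakdown were followed through 8 genes in the spinal cord of rats 24 h after contusion: the synthases Has1, Has2 and Has3, the binding proteins Tnfaip6, Cd44 and Hapln1, and the hyaluronidases Hyal1 and Hyal2. The genes were taken by their annotated symbol from 23188 transcripts on Clariom S arrays, and each of the 8 was represented by 1 transcript cluster. Each of the 22 arrays held RNA from 1 adult male Long-Evans rat, and the groups were Sham/TMX- (5 rats), Sham/TMX+ (6), SCI/TMX- (5) and SCI/TMX+ (6). SCI rats underwent a laminectomy and received a severe contusion at the ninth thoracic level from a 10 g rod dropped 50 mm, whereas in sham rats only soft tissue was opened with no laminectomy, and the laminectomy and the contusion cannot be told apart in a difference between SCI and sham. TMX+ rats received 1 intraperitoneal dose of tamoxifen (5 mg/kg), a selective estrogen receptor modulator, 30 min after surgery, and TMX- rats received only the vehicle, a mixture of ethyl alcohol with corn oil. All rats were given ketamine, xylazine and tramadol, and a 20 mm segment of cord around the lesion or its sham equivalent was collected, freed of the dura.

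Hyaluronan is a long unbranched sugar chain of the extracellular matrix, made at the plasma membrane from UDP-glucuronate and UDP-N-acetylglucosamine and released directly into the matrix. In the central nervous system it is the backbone onto which lecticans (aggrecan, brevican, neurocan and versican) are held by link proteins, as in the perineuronal nets around neurons. In inflamed tissue the chain can be modified by the transfer of heavy chains from inter-alpha-inhibitor, it is cut by hyaluronidases, and leukocytes and reactive glia bind it through CD44.

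Values are deposited log2 signals normalised by RMA, which brings the probe signals of all arrays to 1 distribution before they are summarised by transcript. A log2 fold change is the difference between the mean log2 signals of 2 groups, with its standard error (SE) and adjusted p-value from limma over all 23188 transcripts. Following the thresholds of the study's methods, a contrast of SCI with sham was called where the log2 fold change exceeded 1 in either direction with an adjusted p under 0.05, and a contrast of TMX+ with TMX- where it exceeded 0.7 with a p under 0.05 before adjustment. The labels give 1 animal for each array, so that replicates are separate rats. Precision is limited by having 5 or 6 arrays in a group. All 22 arrays had medians between 5.41 and 5.47, and pairs of arrays correlated between 0.960 and 0.993, so that none looked like a repeat of another. Animals 13c and 15c of SCI/TMX- stood apart from the other SCI rats on the second principal component, which held 8.45% of the variance, with scores of 23.0 and 41.7 against -23.7 to 3.12 for the other 9. Results for the members were therefore also computed without both.

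The promoters of the called members and of the member with the largest fall are shown here, since the results turn on these 3 genes. They run from 250 bases before to 50 bases after an annotated start site and are RefSeq sequences of build GRCr8. Their positions are chr3:56911148-56911447 (plus strand) for Tnfaip6, chr3:109699375-109699674 (minus strand) for Cd44 and chr2:22366717-22367016 (plus strand) for Hapln1. For Tnfaip6 and Hapln1 this site is the outer end of the annotated gene. The annotated Cd44 gene reaches chr3:109699776, so that its whole window, with the bases before the start site, lies inside the gene. The window of Has1, whose sequence is not shown, also lies mostly inside its gene. Capitals mark matches to AP-1 (TGANTCA) or to a loose NF-kB pattern (GGG, any 5 bases, then CC) on either strand.
Tnfaip6: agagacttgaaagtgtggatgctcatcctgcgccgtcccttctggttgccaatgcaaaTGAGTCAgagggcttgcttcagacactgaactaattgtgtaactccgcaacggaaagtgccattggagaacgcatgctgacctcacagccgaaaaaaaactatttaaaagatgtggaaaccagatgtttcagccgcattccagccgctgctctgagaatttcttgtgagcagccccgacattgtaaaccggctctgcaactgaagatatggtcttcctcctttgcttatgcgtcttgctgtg
Cd44: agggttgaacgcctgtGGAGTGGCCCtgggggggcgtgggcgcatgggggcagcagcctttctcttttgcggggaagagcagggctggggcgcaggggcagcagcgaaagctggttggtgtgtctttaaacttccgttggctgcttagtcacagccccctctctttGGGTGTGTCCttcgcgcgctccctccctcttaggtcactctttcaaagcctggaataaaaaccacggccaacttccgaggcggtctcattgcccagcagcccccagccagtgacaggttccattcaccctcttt
Hapln1: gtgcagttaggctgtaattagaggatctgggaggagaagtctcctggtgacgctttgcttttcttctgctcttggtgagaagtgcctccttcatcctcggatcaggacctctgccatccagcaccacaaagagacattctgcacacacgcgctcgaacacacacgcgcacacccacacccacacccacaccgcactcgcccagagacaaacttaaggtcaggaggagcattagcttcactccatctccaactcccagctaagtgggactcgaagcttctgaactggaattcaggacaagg
The single match in Tnfaip6 was TGAGTCA, an AP-1 match that began at position -192 from the start, and 7.33% of 33469 promoters of the same length held such a match. Cd44 held 2 NF-kB matches, at -234 on the minus strand and at -84 on the plus strand, a pattern so loose that 47.3% of all promoters held it. No letters of Hapln1 matched either pattern, nor STAT (TTCNNNGAA, in 8.87% of promoters), the GC box (GGGCGG, in 33.1%) or the TATA box (TATAAA, in 14.2%), which were searched on both strands as well. Promoters of 6 of the 8 members were matched by symbol, those of Has2 and Has3 not. The other 3 held 0 (Has1), 1 (Hyal1, a GC box at -57) and 3 matches (Hyal2, a STAT match TTCCAGGAA at -200 and a GC box at -20 that lies inside an NF-kB match). These matches are letters in a window and were not tested as binding sites.

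After contusion, transcripts of Tnfaip6 and Cd44 were called higher both without and with TMX, Has1, Has2 and Hyal2 rose by less than the fold threshold, Hapln1 fell by less than it, and Has3 did not pass the test in either contrast. Without TMX, 2 of 8 members were called (percent called among all transcripts: 3.05), and without a fold minimum 5 members rose and 1 fell at an adjusted p under 0.05, against 12.8% and 17.8% of all transcripts. With TMX, 2 of 8 were called (3.04% of all transcripts), and by the adjusted p alone 5 rose and 2 fell, against 14.3% and 19.7% of all transcripts. The median log2 fold change of the 8 members was 0.52 without TMX and 0.54 with it, and that of all transcripts was -0.01 and -0.02. In the same contrasts, 4 members lay higher and 1 lower with no overlap between SCI and sham rats, against 8.96% and 12% of all transcripts without TMX and 9.16% and 11.7% with it. The contrasts without and with TMX use different rats. The members were chosen with results of these arrays known, so these counts are descriptions.

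**Figure D1:**
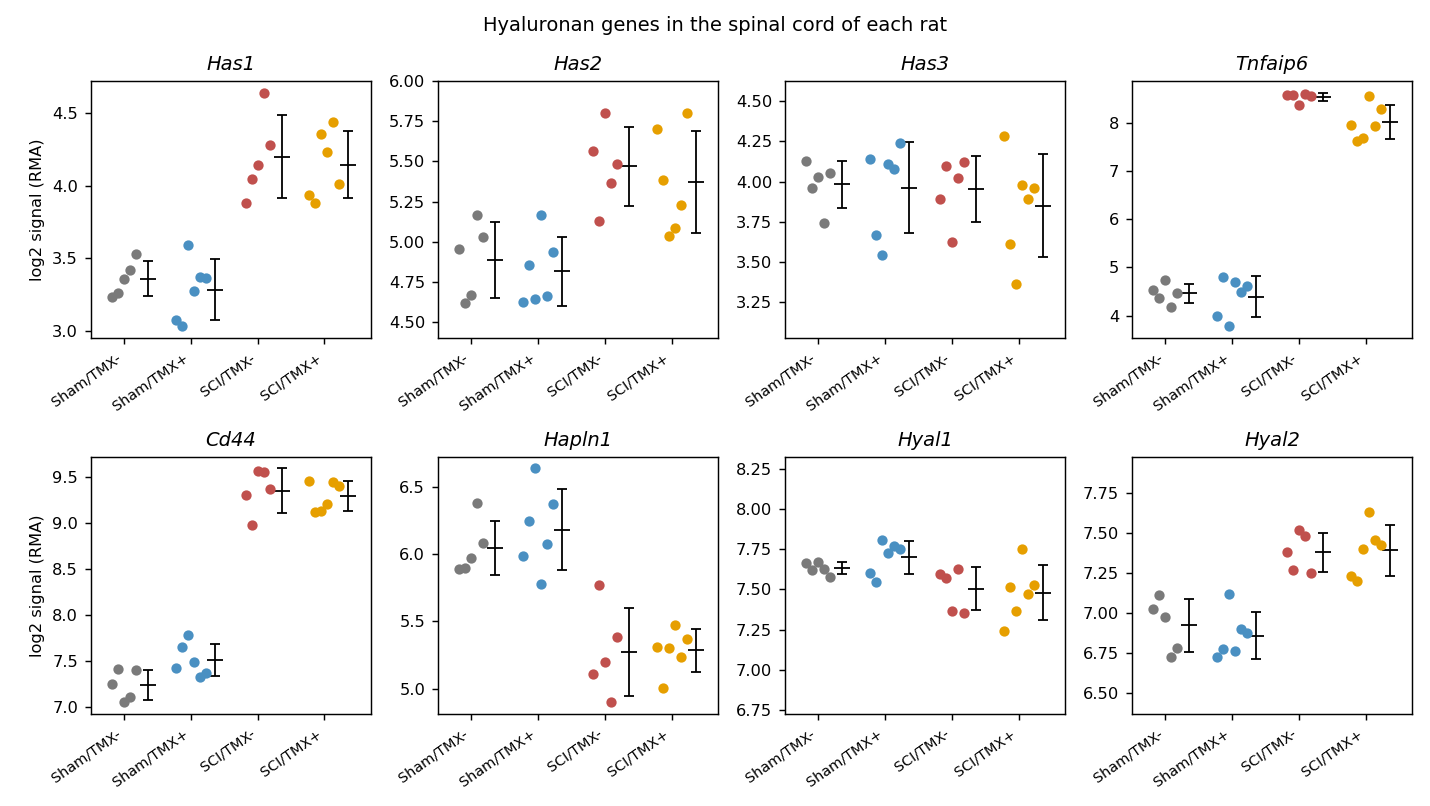
Log2 signal (RMA) of the 8 members in each of the 22 rats, by group, with points for rats and bars for the mean ± SD beside them; axes differ between panels. Tnfaip6 lay between 3.77 and 4.80 in sham rats and between 7.62 and 8.58 in SCI rats, whereas the 4 groups overlapped for Has3.

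Among the synthases, Has1, whose product is one of the enzymes that extend the hyaluronan chain, had log2 signals of 3.23, 3.26, 3.36, 3.42 and 3.53 in Sham/TMX- and of 3.89, 4.05, 4.14, 4.64 and 4.29 in SCI/TMX-. Every SCI/TMX- rat was above every Sham/TMX- rat, and the log2 fold change was 0.84 (SE 0.13, adjusted p = 1.98e-05, n = 5 and 5). With TMX, the range of Has1 was 3.03 to 3.59 in Sham/TMX+ (median 3.32) and 3.89 to 4.44 in SCI/TMX+ (median 4.12), again without overlap, and the log2 fold change was 0.86 (SE 0.12, adjusted p = 3.3e-06, n = 6 and 6). Expressed as a fold, Has1 rose 1.79-fold without TMX and 1.82-fold with it.

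Has2, the synthase that mouse embryos need for heart development, had signals of 4.96, 4.62, 4.67, 5.17 and 5.03 in Sham/TMX- against 5.56, 5.13, 5.80, 5.37 and 5.48 in SCI/TMX-. Here 4 of 5 SCI/TMX- rats exceeded every sham rat, and the remaining rat, 15c, at 5.13 lay just below the highest sham value of 5.17. Its log2 fold change was 0.58 (SE 0.15, adjusted p = 0.00416), or 1.49-fold. In TMX+ rats, Has2 ranged from 4.63 to 5.17 in sham (median 4.76) and from 5.03 to 5.80 in SCI (median 5.31), with a log2 fold change of 0.56 (SE 0.14, adjusted p = 0.00233). The ranges overlapped, since 2 SCI/TMX+ rats (5.03 and 5.09) were below the highest sham value. For Has3, the remaining synthase, the group medians were 4.03 (Sham/TMX-), 4.09 (Sham/TMX+), 4.02 (SCI/TMX-) and 3.93 (SCI/TMX+). Its log2 fold change between SCI and sham was -0.03 without TMX (95% interval -0.34 to 0.28, adjusted p = 0.911) and -0.11 with it (95% interval -0.39 to 0.17, adjusted p = 0.588), so that a change of the size seen for Has1 lies outside both intervals. The mean signals of the 3 synthases were below the median transcript of the array (5.46), those of the other 5 members above it.

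Tnfaip6 encodes TSG-6, a secreted protein that binds hyaluronan through its link module and transfers heavy chains onto it. Its signal was 4.54, 4.37, 4.74, 4.19 and 4.47 in the Sham/TMX- rats and 8.58, 8.57, 8.37, 8.58 and 8.54 in the SCI/TMX- rats, where 4 of 5 lay between 8.54 and 8.58. The log2 fold change of 4.07 (SE 0.17, adjusted p = 1.42e-14) is a 16.8-fold difference, and by its p-value Tnfaip6 ranked 3 of 23188 transcripts in this contrast. Under TMX it ranged from 3.77 to 4.80 in sham (median 4.55) and from 7.62 to 8.54 in SCI (median 7.94), with a log2 fold change of 3.61 (SE 0.16, adjusted p = 1.16e-14), 12.2-fold, at rank 7. The highest sham rat of both contrasts (4.80) was far below the lowest SCI rat (7.62). The named transcripts with the nearest profile to Tnfaip6 over the 22 arrays, by the root mean square difference of centred log2 values, were Hmox1 (0.405), Socs3 (0.431) and Ccl7 (0.434).

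Cd44, the main cell surface receptor for hyaluronan, carried by leukocytes and by some glia, had signals of 7.24, 7.41, 7.05, 7.10 and 7.39 in Sham/TMX- and of 9.30, 8.97, 9.56, 9.55 and 9.37 in SCI/TMX-. The lowest SCI rat (15c, 8.97) was well above the highest sham rat (3a, 7.41). Cd44 rose by a log2 fold change of 2.11 (SE 0.12, adjusted p = 7.27e-13), which is 4.32-fold and rank 20 by p-value. In TMX+ rats its range was 7.32 to 7.77 in sham (median 7.46) and 9.12 to 9.45 in SCI (median 9.30), with a log2 fold change of 1.79 (SE 0.11, adjusted p = 2.13e-12), or 3.45-fold. Nearest to Cd44 in profile were Csrnp1 (0.211), Adamts9 (0.221) and S100a10 (0.227).

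Hapln1, a link protein that locks lecticans onto hyaluronan, was the member that fell most. Signals were 5.89, 5.90, 5.97, 6.38 and 6.09 in Sham/TMX- and 5.11, 5.77, 5.20, 4.90 and 5.38 in SCI/TMX-, so that every injured rat was lower, with 15c (5.77) nearest to the sham rats. The log2 fold change was -0.77 (SE 0.15, adjusted p = 0.000239), 1.71-fold lower. With TMX, Hapln1 ranged from 5.78 to 6.64 in sham (median 6.17) and from 5.01 to 5.48 in SCI (median 5.31), without overlap and with a log2 fold change of -0.90 (SE 0.14, adjusted p = 9.6e-06), 1.87-fold lower.

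The hyaluronidases differed from each other. Hyal2, a membrane-anchored enzyme that cuts long chains, had signals of 7.02, 7.11, 6.98, 6.73 and 6.78 in Sham/TMX- and of 7.38, 7.27, 7.52, 7.48 and 7.25 in SCI/TMX-, with no overlap. It rose by a log2 fold change of 0.45 (SE 0.10, adjusted p = 0.000871), and by 0.53 with TMX (SE 0.09, adjusted p = 4.6e-05), where sham rats ranged from 6.73 to 7.12 and SCI rats from 7.20 to 7.63. Hyal1, the lysosomal enzyme that acts on shorter chains, varied little among Sham/TMX- rats (7.58 to 7.67) and ranged from 7.35 to 7.63 in SCI/TMX-. Its log2 fold change was -0.13 without TMX (SE 0.09, adjusted p = 0.318). Under TMX it ranged from 7.54 to 7.81 in sham and from 7.24 to 7.75 in SCI, with a log2 fold change of -0.22 (SE 0.08, adjusted p = 0.0383), but the adjusted p was not under 0.05 in 10 of 31 alternative settings and reached 0.153. In the RefSeq annotation Hyal2, Hyal1 and Hyal3 are neighbours, and Hyal1 and Hyal3 overlap Naa80, so that signal of these genes and of Naa80 may not be fully separate.

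**Figure D2:**
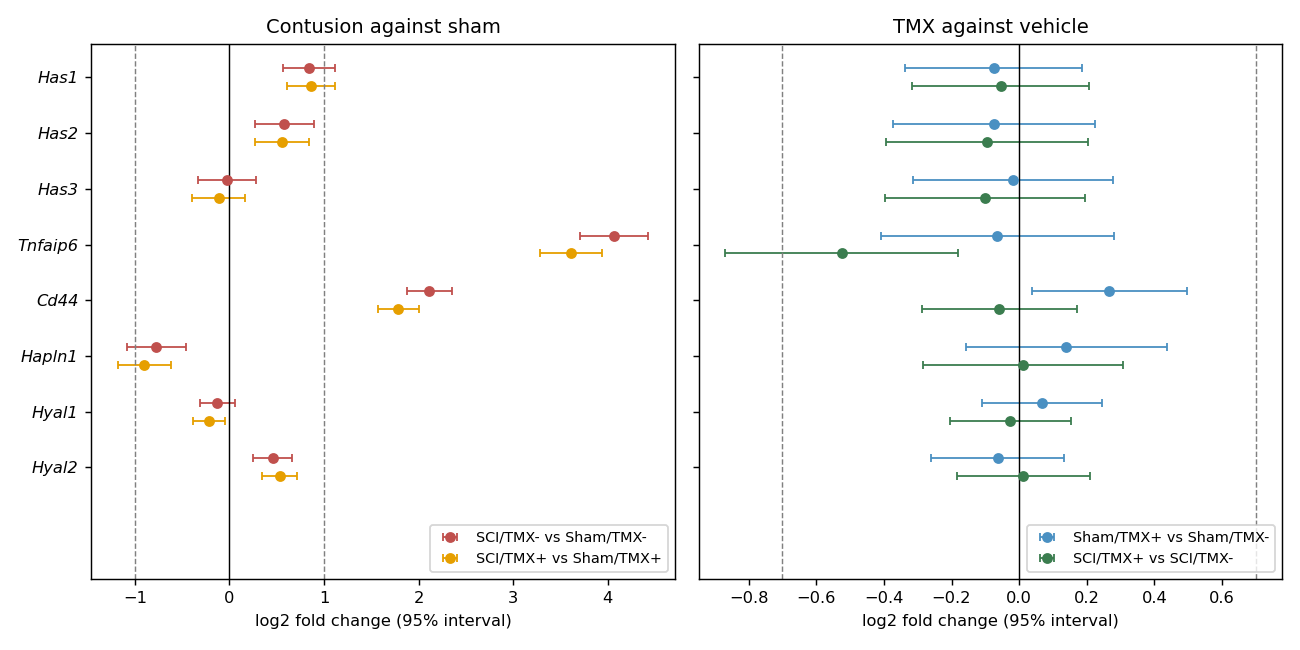
Log2 fold changes of the 8 members with 95% intervals from limma, for contusion against sham (left) and TMX against vehicle (right); dashed lines mark the fold thresholds of 1 and 0.7. Tnfaip6 and Cd44 lie beyond 1 in both contrasts of SCI with sham, and no member lies beyond 0.7 in a contrast of TMX.

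The lesioned segment also held a different mix of cell markers. For comparison, 12.8% of all transcripts were higher and 17.8% lower by the adjusted p without TMX, and 14.3% and 19.7% with it. Of 5 markers of monocytes and macrophages, 5 were higher at an adjusted p under 0.05 in both contrasts, and their summed linear signal was 521 to 735 (Sham/TMX-), 521 to 787 (Sham/TMX+), 1187 to 2320 (SCI/TMX-) and 1332 to 1850 (SCI/TMX+). All 3 measured neutrophil markers were higher, with sums of 41.9 to 66.8, 34.7 to 48.9, 144 to 248 and 136 to 198 in the same order of groups. Red cell markers, 3 of 3 higher, summed to 277 to 1327 over all sham rats and to 2710 to 6231 over all SCI rats. Neuronal markers were lower in 4 of 5 cases without TMX and 5 of 5 with it, with sums of 7689 to 8724 over sham rats and 5242 to 6567 over SCI rats, and 3 of 5 astrocyte markers were lower in both contrasts. The remaining astrocyte markers, Gfap (log2 fold changes of 0.20 and 0.06) and Slc1a2 (-0.13 and -0.18), did not pass the test in either contrast. Of 4 microglial markers, 3 were lower and Aif1 higher in both contrasts, and of 4 oligodendrocyte markers 2 were lower without TMX and 3 with it. Gpr17, of the 3 markers of oligodendrocyte precursors, was called lower (log2 fold changes of -1.15 and -1.59). The other markers of these precursors, Pdgfra (0.03 and 0.07) and Cspg4 (0.06 and -0.09), did not pass the test in either contrast. Of 4 endothelial markers 2 were higher, of which Pecam1 was called (1.30 and 1.27). Markers of fibroblasts and pericytes had 0 members higher and 1 lower without TMX and 0 higher and 2 lower with it, with sums of 889 to 1758 in sham and 1262 to 2141 in SCI. The lowest log2 signal on any array was 1.48, so that absence of a marker cannot be read from a value of 0. The part of these cells in the values of the members was not tested. In such bulk tissue, fewer cells of a type and less RNA per cell cannot be told apart.

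Around the 8 members, 30 of 36 listed genes for hyaluronan precursors, other breakdown enzymes, lecticans, heavy chains and other receptors were measured. Without TMX 5 of the 30 were called, all higher, against 3.05% of all transcripts, and by the adjusted p alone 9 rose and 6 fell, against 12.8% and 17.8%. With TMX 4 were called higher and 1 lower, against 3.04%, and by the adjusted p alone 9 rose and 7 fell, against 14.3% and 19.7%. The shares of the 30 that fell are thus near those of all transcripts. Their median log2 fold change was 0.07 and 0.03, close to that of all transcripts.

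Among precursor enzymes, 4 of 6 rose at an adjusted p under 0.05 in both contrasts and 1 fell with TMX. Of all transcripts, 12.8% rose without TMX and 14.3% with it, and 19.7% fell with it. Gfpt2, a rate-limiting enzyme for UDP-N-acetylglucosamine, rose by a log2 fold change of 1.31 without TMX (SE 0.19, adjusted p = 6.97e-06) and 1.44 with it (SE 0.18, adjusted p = 3.86e-07), from a group median of 5.36 in Sham/TMX- to 6.46 in SCI/TMX-. Ugdh, which makes UDP-glucuronate, rose by 0.65 (adjusted p = 4.41e-05) and 0.80 (adjusted p = 5.03e-07). Uap1, at the last step to UDP-N-acetylglucosamine, rose by 0.44 (adjusted p = 0.000813) and 0.54 (adjusted p = 2.1e-05). Of the 6 genes of the list, 4 lay higher without overlap between SCI and sham rats without TMX, against 8.96% of all transcripts, and 3 higher and 2 lower with it, against 9.16% and 11.7%.

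Of 6 other breakdown enzymes, 1 was higher and 1 lower by the adjusted p without TMX, against 12.8% and 17.8% of all transcripts. With TMX 1 was higher, against 14.3%. Counts this small do not set the list apart. Cemip2, a cell surface hyaluronidase, rose by 0.84 (SE 0.12, adjusted p = 8.25e-06) and by 0.85 with TMX (SE 0.11, adjusted p = 1.47e-06). Hyal3, a relative of Hyal1, had a log2 fold change of -0.25 (adjusted p = 0.016) without TMX and of -0.17 (adjusted p = 0.0774) with it, and Gusb, the lysosomal beta-glucuronidase, had 0.23 (adjusted p = 0.210) and 0.04 (adjusted p = 0.852).

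The lecticans moved in both directions, and 2 of 7 genes of their list rose and 4 fell by the adjusted p in each contrast. Of all transcripts, 12.8% rose and 17.8% fell without TMX, and 14.3% and 19.7% with it. Ncan, which encodes neurocan, had signals of 7.69, 7.88, 7.74, 7.75 and 7.84 in Sham/TMX- and of 9.76, 9.87, 9.82, 9.90 and 9.56 in SCI/TMX-, and its log2 fold change was 2.00 (SE 0.11, adjusted p = 1.08e-12). With TMX it ranged from 7.71 to 8.23 in sham and from 9.12 to 9.76 in SCI, with a log2 fold change of 1.47 (SE 0.10, adjusted p = 3.92e-11). Vcan, which encodes versican, rose by 1.04 (SE 0.10, adjusted p = 1.73e-08) without TMX, just beyond the fold threshold, and by 0.58 (SE 0.09, adjusted p = 1.87e-05) with it. Bcan, which encodes the lectican brevican, fell by 0.83 on the log2 scale (SE 0.12, adjusted p = 9.34e-06) without TMX and by 1.12 (SE 0.11, adjusted p = 2.04e-08) with it.

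Of the genes for heavy chain transfer and cross-linking, Ptx3, a pentraxin that binds TSG-6 and heavy chains in a hyaluronan matrix, rose by 1.58 (SE 0.22, adjusted p = 3.79e-06) and by 1.82 with TMX (SE 0.20, adjusted p = 9.13e-08). Itih3, a heavy chain of inter-alpha-inhibitor, fell by 0.46 (adjusted p = 0.000992) and by 0.54 (adjusted p = 6.02e-05) on the log2 scale, and Ambp, the source of the bikunin chain, had log2 fold changes of 0.14 (adjusted p = 0.613) and 0.15 (adjusted p = 0.560). In this list of 5 genes, 1 rose and 1 fell by the adjusted p without TMX, against 12.8% and 17.8% of all transcripts. With TMX 1 rose and 2 fell, against 14.3% and 19.7%. Counts this small do not set the list apart. Among 6 other receptors, only Lyve1 passed the test in either contrast. Lyve1, a receptor of lymphatic vessels and some macrophages, rose by 1.03 (SE 0.15, adjusted p = 6.22e-06) and 1.01 (SE 0.14, adjusted p = 1.81e-06), both close to the fold threshold. Tlr4, an innate immune receptor, had 0.25 (adjusted p = 0.200) and 0.26 (adjusted p = 0.137), and Stab2, a hyaluronan clearance receptor, had -0.19 (adjusted p = 0.339) and 0.06 (adjusted p = 0.761).

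**Figure D3:**
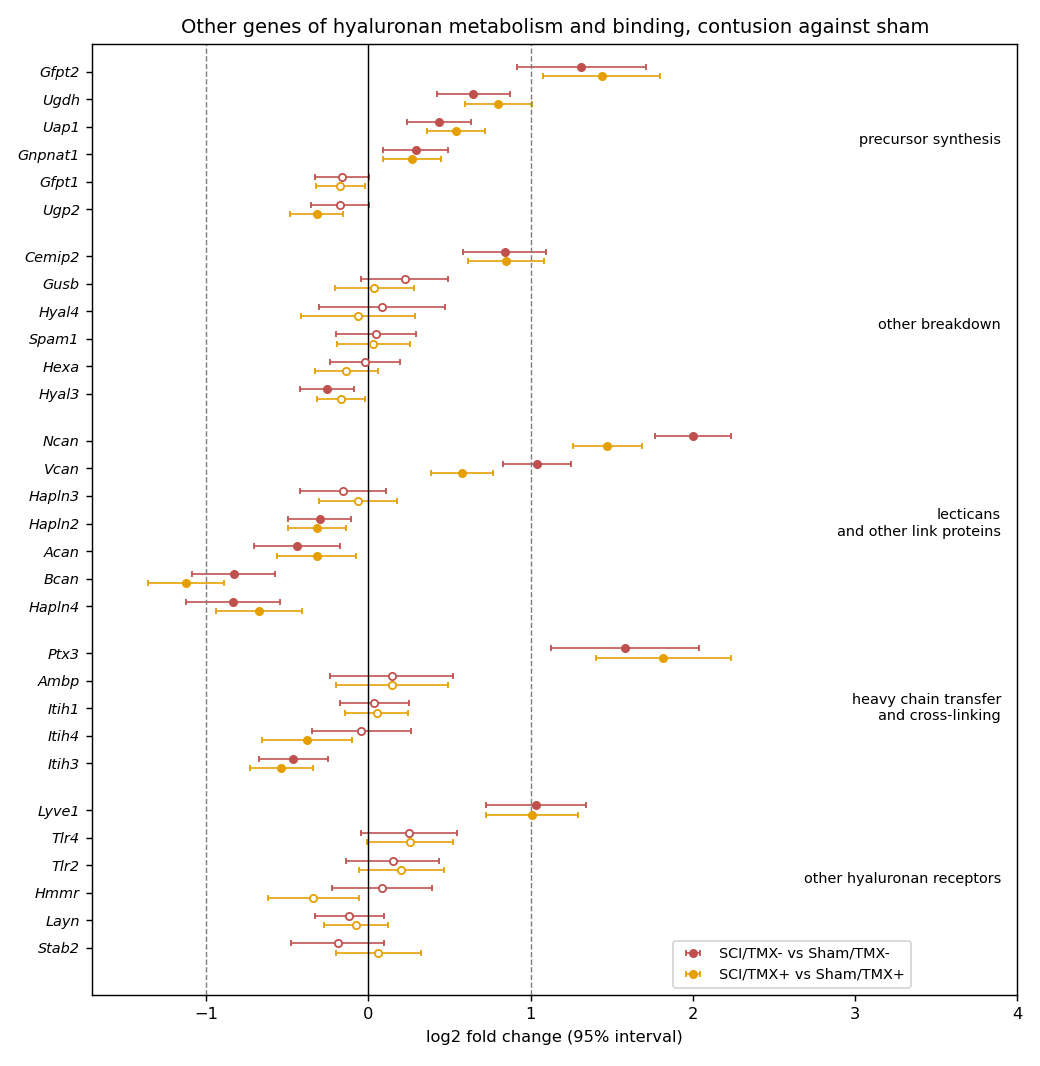
Log2 fold changes with 95% intervals of the 30 other hyaluronan genes in both contrasts of SCI with sham, by list; filled points have an adjusted p under 0.05 and dashed lines mark 1 in either direction. Ncan (2.00 and 1.47) and Ptx3 (1.58 and 1.82) lie farthest to the right and Bcan (-0.83 and -1.12) farthest to the left with TMX.

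TMX called no member in sham or in injured rats. In sham rats, 0 of 8 members passed the thresholds (percent called: 0.0302), and only Cd44 had an unadjusted p under 0.05 in limma. Cd44 was higher by 0.27 in Sham/TMX+ than in Sham/TMX- (95% interval 0.04 to 0.49, adjusted p = 0.866), with overlapping ranges of 7.32 to 7.77 and 7.05 to 7.41. An unadjusted p under 0.05 was found for 5.46% of all transcripts in this contrast. The other 7 members differed by -0.08 to 0.14 on the log2 scale.

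In injured rats, 0 of 8 members were called (percent called: 0.129), and the largest difference was that of Tnfaip6. It lay between 8.37 and 8.58 in SCI/TMX- and between 7.62 and 8.54 in SCI/TMX+, where the signals were 7.96, 7.62, 7.69, 8.54, 7.93 and 8.28. All SCI/TMX+ rats but 10b (8.54) were below every SCI/TMX- rat. The log2 fold change was -0.52 (SE 0.17, 95% interval -0.87 to -0.18, adjusted p = 0.249), short of the fold threshold of 0.7 and not significant after adjustment, though its unadjusted p was under 0.05. The same held in each of 31 alternative settings, with adjusted p-values from 0.150 to 0.596 and log2 fold changes from -0.63 to -0.45. In this contrast 10.4% of all transcripts had an unadjusted p under 0.05. Without animals 13c and 15c, the difference was -0.49 (adjusted p = 0.434). The other 7 members had log2 fold changes of -0.10 to 0.01.

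Of the 30 other genes, 0 were called for TMX in either contrast by limma, and 5 had an unadjusted p under 0.05 in injured rats (10.4% of all transcripts) and 0 in sham rats (5.46% of all transcripts). The 5 were Itih4, with a log2 fold change of -0.46 (adjusted p = 0.238), Hmmr, with -0.42 (adjusted p = 0.274), Ugp2, with -0.18 (adjusted p = 0.468), Ncan and Vcan, of which the first 3 were named after their values were seen. Ncan was lower in SCI/TMX+ than in SCI/TMX- by a log2 fold change of -0.34 (adjusted p = 0.249), and Vcan by -0.30 (adjusted p = 0.251). The ranges of Ncan and Vcan overlapped in injured rats, from 9.56 to 9.90 against 9.12 to 9.76 for Ncan and from 7.42 to 7.87 against 7.20 to 7.49 for Vcan. The marker list of monocytes and macrophages also held 1 gene called lower in SCI/TMX+, Ccr2 (-0.85), which was named after its value was seen, while its other 4 genes were not called. The part of these cells in the values of Tnfaip6, Ncan and Vcan was not tested.

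Whether TMX changed the response to contusion was asked by the interaction, the difference between the TMX effects in SCI and sham rats. No member had an adjusted p under 0.05 in limma (percent called: 0), and 1 of 8 members had an unadjusted p under 0.05, against 6.84% of all transcripts. This member was Cd44, with an interaction of -0.32 on the log2 scale (95% interval -0.65 to -0.0011, adjusted p = 0.730). Its contusion log2 fold change was 2.11 without TMX and 1.79 with it. The difference between TMX+ and TMX- was 0.27 in sham rats and -0.06 in SCI rats, so that most of the interaction lay in the sham groups. Over 30 alternative settings the interaction of Cd44 lay between -0.47, without animals 13c and 15c (adjusted p = 0.384), and -0.27. Its unadjusted p was not under 0.05 in 14 of them. For Tnfaip6 the interaction was -0.46 (95% interval -0.95 to 0.03, adjusted p = 0.751). Among the 30 other genes, 3 had an unadjusted p under 0.05 for the interaction in limma, against 6.84% of all transcripts. These were Ncan with -0.53 (adjusted p = 0.464), Vcan with -0.46 (adjusted p = 0.493) and Hmmr with -0.42 (adjusted p = 0.726). Between Sham/TMX+ and Sham/TMX- the log2 fold changes were 0.19 for Ncan, 0.16 for Vcan and -0.003 for Hmmr. The remaining 6 members had interactions of -0.13 to 0.08. For none of the 8 members was the contusion response shown to differ with TMX.

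Without animals 13c and 15c, the called members stayed called, with log2 fold changes without TMX of 4.04 for Tnfaip6 (adjusted p = 2.92e-12) and 2.26 for Cd44 (adjusted p = 2.92e-12). Has1 had 1.00 (adjusted p = 1.21e-05), just under the fold threshold before rounding, Has2 had 0.66 (adjusted p = 0.00549), Hyal2 had 0.49 (adjusted p = 0.00221) and Hapln1 had -0.88 (adjusted p = 0.000155), each with the direction it had with all arrays.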

How the data were processed

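Log2 values of 22 Clariom S arrays, deposited as 1 table, were made by the authors with RMA in oligo 1.56 (background correction, quantile normalisation and summary of the probes of each transcript), from RNA with an integrity number of at least 7. The array's genome build is not given in the sources used here. From the deposited log2 values, limma 3.58.1 in R 4.3.3 fitted 4 group means (18 residual and 6.99 prior degrees of freedom) to all 23188 transcripts, with moderated two-sided tests adjusted by Benjamini-Hochberg. The platform annotation gives 1 symbol to 15049 transcripts. Members and lists were chosen with earlier results of these data known. All members were named, of each other list the 3 genes with the largest moderated t between SCI/TMX- and Sham/TMX- and any called for TMX, and for called members the 3 nearest profiles. Promoters and gene neighbours came from RefSeq tables of build GRCr8. Of these steps, only the limma calls of SCI/TMX- against Sham/TMX- were tried on simulated data, with independent noise and known changes added. Alternatives were limma's trend and robust options, a low signal filter (11594 transcripts), median centring, quantile normalisation once more, array weights, a replicate block, only the compared groups, 1 transcript per gene (15037), other thresholds, each array left out, and animals 13c and 15c left out.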

Additional observations from a re-analysis of the deposited data

Results flagged for a closer look

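In SCI/TMX-, Tnfaip6 in animal 16c, at a log2 signal of 8.37, was set apart from the other 4 rats by a gap that made up most of the range of the group (gap over range 0.819, against a Dixon limit of 0.71). This was 1 of 32 combinations of member and group tested, and chance marks about 1 in 20. The value of 16c was the lowest of its group, which otherwise lay between 8.54 and 8.58, and without 16c the member was still called in the contrast with Sham/TMX-.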

How the results depend on the processing

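The 2 called members, Tnfaip6 and Cd44, were called in both contrasts of SCI with sham under every setting, and no member was called for TMX under a setting that kept the thresholds. Without a fold minimum, 6 and 7 members and 15 and 16 other genes passed in SCI/TMX- and SCI/TMX+ against their sham groups, 1 member passed for TMX in each of sham and SCI rats, and 5 other genes passed for TMX in SCI rats. With the thresholds of the TMX and SCI contrasts exchanged, 4 members passed in each contrast of SCI with sham, Has1 and Hapln1 being added, and 8 other genes passed without TMX. The count of 5 other genes called without TMX ranged from 3 to 5 when arrays were left out in turn, with 3 without SCI/TMX- replicate 4 (17c); Vcan and Lyve1 lay close to the fold threshold.

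Directions changed only for log2 differences that passed no test. In the interaction, Has1 went from 0.02 to -0.097 with array weights and to -0.14 without animals 13c and 15c. Between SCI/TMX+ and SCI/TMX-, Hyal1 went from -0.03 to 5.9e-05 with array weights and 0.029 without both animals, and Hyal2 from 0.01 to -0.013, -0.025 and, with quantile normalisation once more, -0.019. Leaving out 1 array in turn gave ranges across 0 between these groups for Has1 (-0.13 to 0.056), Hyal1 (-0.080 to 0.022), Hyal2 (-0.035 to 0.051) and Hapln1 (-0.081 to 0.14), in the interaction for Has1 (-0.058 to 0.13), Has2 (-0.11 to 0.060) and Has3 (-0.17 to 0.014), for Has3 between SCI/TMX- and Sham/TMX- (-0.089 to 0.053) and between the sham groups (-0.079 to 0.065), and for Tnfaip6 between the sham groups (-0.14 to 0.060). The cause was not tested.

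The replicate numbers used here are the order of the arrays within each group, and the titles give only the animal. Agreement by this number was looked for in the deviations of arrays from their group means. Arrays of different groups with the same number correlated at a mean of 0.016 (31 pairs, 5 over 0.1, range -0.21 to 0.23). Those with other numbers had a mean of -0.003 (150 pairs, 10 over 0.1, range -0.26 to 0.23). A number set by order cannot show whether rats of different groups were paired, so no conclusion on pairing is drawn. With the number as a replicate block, 2 members were called in each contrast of SCI with sham, and Hapln1 went from 0.01 to -0.015 between SCI/TMX+ and SCI/TMX-. The low signal filter left out the 3 synthases, the fit with only the compared groups gave no interaction, and another transcript cluster per gene could not be tried, since each member has 1. Signals of Has1 and Has3 were low, at percentiles 25.9 and 28.6 of the transcript means, which limits what could be seen of them.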
